A study of Arabidopsis thaliana with 32 samples.

Results

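The genes described here encode proteins of the cytosolic small ribosomal subunit (40S) of Arabidopsis thaliana. They are 53 genes of 21 protein families, named S2 to S26 and SA, out of 99 genes of 33 families in the 40S list used here. They were chosen by gene identifier with results of the same 8 comparisons known, and a member counts in a comparison where its identifier stands in a line of that comparison's table, alone or with neighbouring genes. Of the 53 members, 38 stand in at least 1 table and 15 in none, among 5162 genes that the tables list in all. The tables hold only called loci, so the share of all tested genes in at least 1 table is not known. Nothing is therefore read from the 38. The number of tables per listed member was 1 for 18 members, 2 for 14 members and 3 for 6 members.

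Roots were taken from seedlings of 2 wild-type accessions, Col-0 and WS, with no transgene or mutation named in the labels. Seeds germinated on solid plates under light-emitting diodes, either on the International Space Station (flight) or in a chamber at Kennedy Space Center that repeated the station's temperature, CO2 and light 48 h later (ground). Seedlings were fixed in RNAlater at 4 or 8 days, so the groups are flight and ground at 4 and 8 days in Col-0, and flight and ground at 4 and 8 days in WS, each with 4 replicates, 32 libraries in all. Each 4 day replicate was a pool of 5 to 8 roots, and each 8 day replicate a pool of 2 to 3, so fewer plants stand behind the older libraries. The roots were whole, so fewer cells of a type and less RNA per cell cannot be told apart.

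Each deposited table compares 2 of these groups and lists only the loci whose q-value, as the authors computed it, was at most 0.05. It gives 1 level per group in FPKM (fragments per kilobase of transcript, scaled for library size). Scaling was separate for each table, so the level of 1 group differs slightly between tables. No value per replicate is given, so the level of each group stands for its 4 libraries, their spread is seen only through the authors' test, and the depth is unknown. Fold changes are on the log2 scale, above 0 where flight or the older age was higher, and the value after ± is the standard error that the authors' test statistic implies. "Rose" and "fell" are used only of genes in a table, and absence from a table leaves a gene's change unknown rather than zero. The 8 comparisons ask how flight changed root expression at each age and how each accession changed between the ages.

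The small subunit binds messenger RNA and reads its codons, while the large subunit (60S) joins amino acids. Its ribosomal RNA and proteins fold into a head and a body, with the messenger RNA passing between them. In plants most ribosomal proteins come from several near-identical genes, and these genes are among the most strongly expressed in dividing root tips. The TOR kinase pathway, which responds to nutrients, light and hormones, promotes ribosome production, and S6 is the best known phosphorylated protein of the small subunit. Many plant ribosomal protein promoters carry telo boxes and site II elements, the latter bound by TCP transcription factors. Family names follow the member list, and places in the head or body come from yeast and mammalian ribosome structures.

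In Col-0 the loci of the authors' deposited tables lie at chr3:1309294-1310887 for AT3G04770 (SA), chr3:16471386-16472393 for AT3G45030 (S20), chr3:19951488-19952961 for AT3G53870 (S3) and chr5:23901370-23906977 for AT5G59240 (S8), and in Col-0 each overlaps the RefSeq gene of that name. The 250 bases before the RefSeq gene start are shown for 3 of the 6 members that stand in 3 tables, and for the S8 gene because it is the one member called in flight at both ages in Col-0, a choice made after its values were seen. They are 5′ to 3′ on the gene's strand, in the TAIR10.1 build. Capitals mark a telo box (AAACCCTA) or a site II element (TGGGCC or TGGGCT) on either strand, and overlapping matches run together. The positions are chr3:1311130-1311379 for AT3G04770 on the minus strand, chr3:16472410-16472659 for AT3G45030 on the minus strand, chr3:19951174-19951423 for AT3G53870 on the plus strand and chr5:23903768-23904017 for AT5G59240 on the minus strand.
AT3G04770 (SA): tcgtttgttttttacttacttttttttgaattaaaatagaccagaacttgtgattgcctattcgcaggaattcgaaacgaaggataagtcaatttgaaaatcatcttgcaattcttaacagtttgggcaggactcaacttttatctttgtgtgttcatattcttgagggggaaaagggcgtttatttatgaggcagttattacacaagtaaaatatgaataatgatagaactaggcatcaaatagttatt
AT3G45030 (S20): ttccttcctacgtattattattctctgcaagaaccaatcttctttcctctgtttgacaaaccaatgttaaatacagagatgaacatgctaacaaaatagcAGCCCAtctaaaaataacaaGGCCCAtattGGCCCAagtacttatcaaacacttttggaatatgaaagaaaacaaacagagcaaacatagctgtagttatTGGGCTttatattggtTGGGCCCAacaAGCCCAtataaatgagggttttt
AT3G53870 (S3): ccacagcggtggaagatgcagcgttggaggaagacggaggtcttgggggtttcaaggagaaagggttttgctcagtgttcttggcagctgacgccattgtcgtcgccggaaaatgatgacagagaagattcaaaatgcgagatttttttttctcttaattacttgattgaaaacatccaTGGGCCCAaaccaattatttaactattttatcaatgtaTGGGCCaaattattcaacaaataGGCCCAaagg
AT5G59240 (S8): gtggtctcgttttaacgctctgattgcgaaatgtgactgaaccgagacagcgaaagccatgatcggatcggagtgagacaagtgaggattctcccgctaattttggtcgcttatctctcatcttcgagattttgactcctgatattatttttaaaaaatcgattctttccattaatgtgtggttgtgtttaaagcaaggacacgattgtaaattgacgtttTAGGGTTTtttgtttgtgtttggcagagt

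The S20 promoter held 7 site II matches, between 150 and 23 bases before the gene start, and the S3 promoter held 4, between 71 and 10 bases before it. The S8 promoter held 1 telo box, 29 bases before the start, and no site II element. The SA window held neither motif, and for that gene the RefSeq start, base 1311129, lies outside the locus of the authors' deposited table, which ends at base 1310887. Over the 53 members, 31 promoters (58.5%) held a site II element and 9 (17%) a telo box, with 6 holding both and 19 neither. Of 27443 protein-coding genes, 19.2% held a site II element and 4.49% a telo box in the same window, and among 129 genes of the large subunit the shares were 70.5% and 24.0%. In the other 46 genes of the 40S list they were 71.7% and 15.2%. Of the 38 listed members 60.5% held a site II element and 13.2% a telo box, and of the 15 unlisted members 53.3% and 26.7% did. A match describes letters in this window and shows no binding.

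In 4 day Col-0 roots, 16 of the 53 members rose in flight and none fell in the authors' deposited table, against 3.10% of all 19612 loci tested called higher and 4.11% called lower. Since the members were chosen with this contrast known, nothing is read from that difference. The median of the 16 fold changes was 0.41, a 1.33-fold rise, with a range of 0.32 to 0.63. The 1411 listed loci with a fold change comprised 605 higher and 806 lower, with a median of -0.46, in the authors' deposited table. That median mixes loci of both directions, so it is no measure to set the members against. Of 350 other listed genes at 100 FPKM or more, ribosomal protein genes left out, 39.4% were higher in flight.

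Proteins of the head included S20, S16, S19, S18 and S10. AT3G45030, which encodes S20, stood at 798 FPKM on the ground and 1071 FPKM in flight in the authors' deposited table, a fold change of 0.43 ± 0.22 (q-value 0.00185). AT2G09990 encodes S16, whose tail reaches the transfer RNA in the decoding site, and rose from 476 to 648 FPKM (0.45 ± 0.26) in the authors' deposited table. AT3G02080 encodes S19, which is needed to mature the small subunit's RNA in yeast and humans, and rose from 1206 to 1608 FPKM (0.41 ± 0.28) in the authors' deposited table. These were the largest head changes, and all 3 genes were already strongly expressed on the ground. The S18 genes AT1G22780 (POINTED FIRST LEAF, named for the leaf shape of its mutant) and AT1G34030 rose as well, as did the S10 genes AT4G25740 and AT5G52650.

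Body proteins gave the 4 largest rises. AT5G59240, an S8 gene, went from 28.5 to 44.2 FPKM in the authors' deposited table, a fold change of 0.63 ± 0.42 (q-value 0.0428). AT4G30800, an S11 gene, went from 138 to 197 FPKM (0.52 ± 0.34), but that line of the authors' deposited table also holds AT4G30810 and AT4G30825. AT3G04770 encodes SA, a protein of the body that in animals was first described as a laminin receptor, and rose from 47.4 to 66.9 FPKM (0.50 ± 0.28) in the authors' deposited table. The first 3 were also the 3 least expressed of the 16 members.

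Both S24 genes were listed, and they were among the most expressed. AT3G04920 rose from 1116 to 1564 FPKM (0.49 ± 0.24) and AT5G28060 from 842 to 1147 FPKM (0.45 ± 0.22) in the authors' deposited table. The line of AT3G04920 spans 30794 bases of chromosome 3 in the authors' deposited table although it names 1 gene. All 3 S26 genes rose too, and S26 lies where messenger RNA leaves the subunit. AT2G40510 and AT2G40590, both S26 genes, share an identical run of 152 nt, so the split of reads between them is uncertain. The S7 gene AT3G02560 was the remaining body gene. The plot of ground and flight levels shows all 16 shifts.

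**Figure D1:**
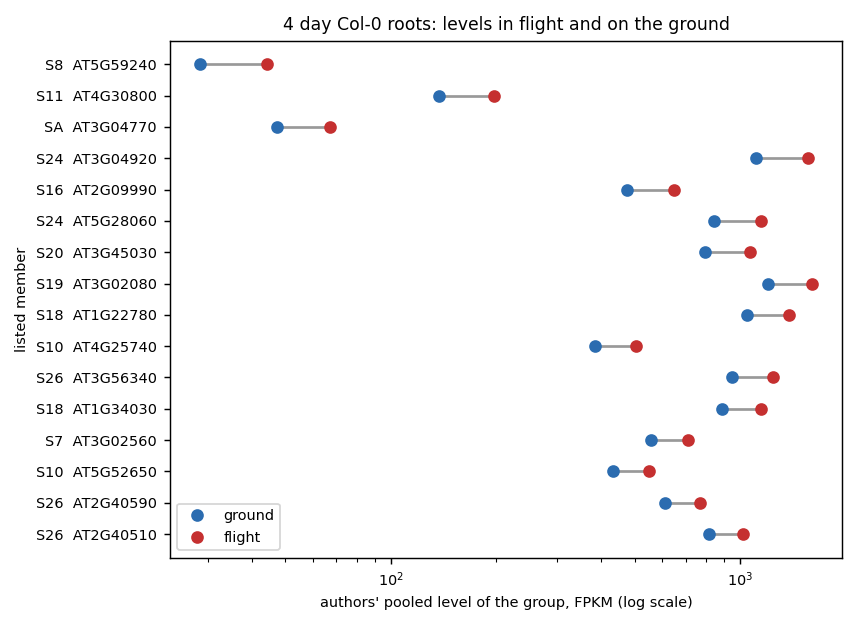
Levels of the 16 small-subunit genes called in 4 day Col-0 roots, in FPKM on a log axis, with the ground group in blue and the flight group in red. Each point is the authors' pooled level of 4 libraries, and every flight level lies to the right of its ground level, from 28.5 against 44.2 FPKM for the S8 gene AT5G59240 at the top to 818 against 1020 FPKM for the S26 gene AT2G40510 at the bottom.

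Only 5 of these 16 calls had a q-value of 0.01 or less, and 2 had a fold change of 0.5 or more. For 14 of the 16 the fold change was under 1.96 times the standard error that the authors' statistic implies, although their q-value passed.

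The other genes of translation were followed in lists chosen with these results known. In 4 day Col-0 roots, 11 of the other 46 genes of the 40S list, 53 of 129 genes of the 60S list and 10 of 35 ribosome assembly genes were higher in flight in the authors' deposited table, and none was lower. Of 37 translation factor genes 1 was higher, and of 30 plastid ribosome genes 1 was lower. AT1G23410, which encodes S27a fused to ubiquitin, rose most among the other 40S genes, from 219 to 336 FPKM (0.62 ± 0.24) in the authors' deposited table. XRN2, an exonuclease that processes ribosomal RNA, rose from 18.1 to 32.6 FPKM (0.85 ± 0.46) in the authors' deposited table. None of 9 regulator genes of the TOR and TCP type and none of 16 markers of dividing cells was listed in this comparison.

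Markers of cell types moved in the same comparison. WOX5, a transcription factor of the root stem cell niche, rose from 15.4 to 25.7 FPKM (0.73 ± 0.42), and PHT1;1, a phosphate transporter of the root surface, fell from 258 to 195 FPKM (-0.41 ± 0.25) in the authors' deposited table. The other 6 of 8 root markers were not listed. Of 10 green tissue genes 2 were lower, among them RBCS1A, a subunit of Rubisco, at 255 FPKM on the ground and 200.2 FPKM in flight in the authors' deposited table. Summed levels of a marker list cannot be given, since unlisted genes have no value. Whether the cell makeup of the roots had a part in the result was not tested.

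In WS roots of the same age no member was listed in either direction. There 0.352% of 17899 loci tested were called higher and 0.363% lower in the authors' deposited table, so few loci of any kind were called. The other lists of ribosomal proteins, assembly, translation factors and plastid ribosomes also held 0 listed genes, while 5 of 10 green tissue genes were higher in flight. RBCS1A stood at 169 FPKM on the ground and 333 FPKM in flight (0.98 ± 0.34) in the authors' deposited table. Whether the flight change differed between Col-0 and WS was not tested, because unlisted genes have no fold change.

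At 8 days 1 member was listed for flight in Col-0 and none in WS. The shares of all loci tested were 1.26% higher and 2.80% lower in Col-0, and 2.36% higher and 2.75% lower in WS, in the authors' deposited tables. The 1 member was the S8 gene AT5G59240, at 30.04 FPKM on the ground and 42.9 FPKM in flight (0.51 ± 0.30, q-value 0.0217) in the authors' deposited table. As 1 of 53 members, it makes up 1.89%, near the 1.26% of all loci, so nothing is read from the call. AT5G59240 was called higher in flight at both ages in Col-0, from tables that share no library. Its locus spans 5608 bases of chromosome 5 (23901370 to 23906977) in the authors' deposited table and overlaps AT5G59230 on the other strand. The library kit does not mark strand, so reads of the 2 genes cannot be told apart.

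Other translation genes were called at 8 days in small numbers. In Col-0, 5 of the 129 60S genes were higher and 2 lower, and 4 of the 35 assembly genes were higher in the authors' deposited table. Of the 30 plastid ribosome genes 4 were lower in that comparison. Of the other 46 40S genes 1 was lower in each accession. These were the S29 gene AT3G44010 in Col-0 (-0.26 ± 0.15) and the S28 gene AT3G10090 in WS (-0.35 ± 0.18) in the authors' deposited tables. AT3G10090 had risen in 4 day Col-0 flight roots (0.45 ± 0.23) in the authors' deposited table. In WS, 1 of the 60S genes was higher and 3 were lower. There 6 of 37 translation factor genes were higher in flight and none lower, with eIF3c, a subunit of the initiation factor that binds the small subunit, going from 34.9 to 59.7 FPKM (0.77 ± 0.23) in the authors' deposited table.

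Markers moved at 8 days in Col-0 too. Of 10 green tissue genes 3 were lower in flight, LHCB2.2 (-2.43 ± 0.93), LHCB2.1 (-2.17 ± 0.48) and RBCS1A (-0.75 ± 0.18), in the authors' deposited table. Of 8 root markers PHT1;1 was lower (-0.43 ± 0.20) and SCR higher (0.40 ± 0.24) in the authors' deposited table. In WS none of the green tissue, root or dividing cell markers was listed at 8 days. The part of these markers in the S8 result was not tested.

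**Figure D2:**
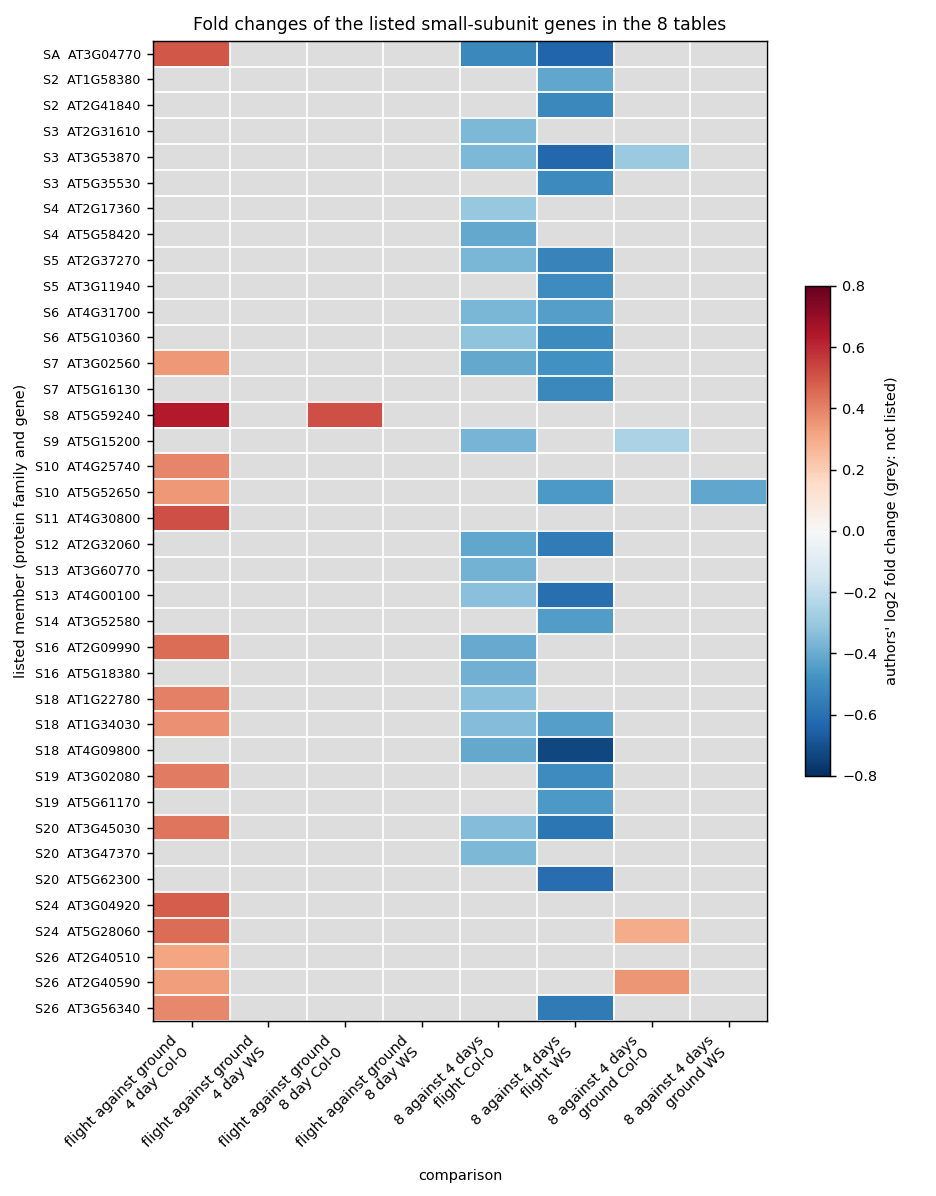
The authors' log2 fold changes of the 38 listed small-subunit genes (rows, by protein family) in the 8 comparisons (columns), red where higher in flight or at 8 days, blue where lower and grey where not listed. The column for flight at 4 days in Col-0 holds 16 red cells, and the columns for age in flight hold 20 blue cells in Col-0 and 22 in WS.

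Between 4 and 8 days in flight, 20 members fell in Col-0 and none rose. The authors' deposited table called 3.33% of 20007 loci higher and 3.45% lower, and nothing is read from the difference, since this contrast too was known when the members were chosen. The median of the 20 fold changes was -0.37, a 1.29-fold fall, with a range of -0.51 to -0.30. The 1350 listed loci with a fold change comprised 661 higher and 689 lower, with a median of -0.29, and a median over loci of both directions is no measure to set the members against. Levels at 4 days ran from 69.3 FPKM for the SA gene AT3G04770 to 3030 FPKM for AT5G15200 in the authors' deposited table. AT5G15200 encodes S9, a body protein, and stood at 2338 FPKM at 8 days in the authors' deposited table.

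Head genes that fell in Col-0 included S12, S18 and S16. AT2G32060 encodes S12, a protein of the beak of the head, and went from 1902 to 1424 FPKM (-0.42 ± 0.22) in the authors' deposited table. AT4G09800 (RPS18C), an S18 gene, went from 985 to 741 FPKM (-0.41 ± 0.19) in the authors' deposited table, and it overlaps AT4G09810 on the other strand. S18 sits in the head and forms a bridge to the large subunit. Of the S16 genes, AT2G09990 went from 671 to 508 FPKM (-0.40 ± 0.22) and AT5G18380 from 1509 to 1154 FPKM (-0.39 ± 0.23) in the authors' deposited table, and these 2 share an identical run of 124 nt.

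Among body genes the SA gene AT3G04770 fell most, from 69.3 to 48.6 FPKM (-0.51 ± 0.24) in the authors' deposited table. AT3G02560, an S7 gene that overlaps a gene on the other strand, went from 735 to 553 FPKM (-0.41 ± 0.19) in the authors' deposited table. AT5G58420, an S4 gene, went from 988 to 745 FPKM (-0.41 ± 0.25) and AT3G60770, an S13 gene, from 1527 to 1174 FPKM (-0.38 ± 0.19) in the authors' deposited table. Both S6 genes, AT4G31700 and AT5G10360, fell as well. In all, 11 of 22 head genes and 9 of 31 body genes fell, beside 3.45% of all loci tested. No test compares head and body, and nothing is read from these counts. With a limit of 0.5 on the size of the fold change, 1 of the 20 calls was left, that of SA. A q-value limit of 0.01 left 15 of the 20.

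The flight table and the age table of Col-0 share the 4 libraries of 4 day flight roots, so a member listed in both rests on those libraries in both. There were 6 such members, and their values are set side by side without a test. SA (AT3G04770) stood at 47.4 FPKM on the ground at 4 days, 66.9 or 69.3 FPKM in flight at 4 days by the flight or the age table, and 48.6 FPKM in flight at 8 days in the authors' deposited tables. S20 (AT3G45030) stood at 798, 1071 or 1110, and 873 FPKM in the same order in the authors' deposited tables. S7 (AT3G02560) stood at 557, 709 or 735, and 553 FPKM in the authors' deposited tables. That the 4 day flight group is the highest of the 3 groups follows from the choice of genes called higher in one table and lower in the other. S16 (AT2G09990) stood at 476, 648 or 671, and 508 FPKM, and the S18 genes at 1047, 1383 or 1433, and 1136 FPKM (AT1G22780) and at 890, 1148 or 1189, and 934 FPKM (AT1G34030) in the authors' deposited tables. The tables were normalised separately, and the shared group differed by -0.05 on the log2 scale between them for these 6 genes.

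**Figure D3:**
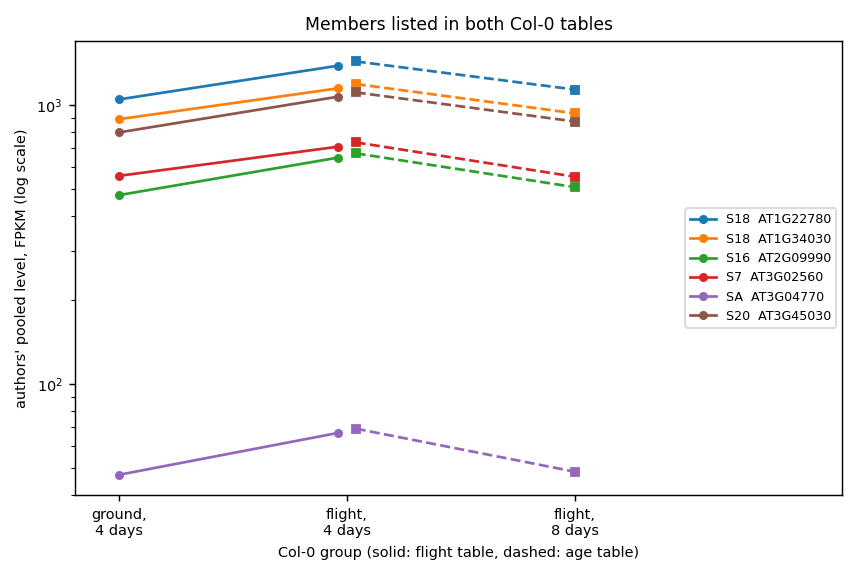
Levels in FPKM, on a log axis, of the 6 members listed in both Col-0 tables, by group, with circles and solid lines from the flight table and squares and dashed lines from the age table. The genes were picked for being called in both tables, so the 4 day flight group, which the tables share, is the highest by that choice, as for S20 (AT3G45030) at 1071 and 1110 FPKM against 798 FPKM on the ground and 873 FPKM at 8 days.

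In WS the age change in flight gave 22 members lower and none higher. All loci tested there numbered 17695, with 2.65% called higher and 3.42% lower in the authors' deposited table, again in a contrast known when the members were chosen. The median fold change of the 22 was -0.51, a 1.43-fold fall, with a range of -0.73 to -0.42. The 1047 listed loci with a fold change comprised 465 higher and 582 lower, with a median of -0.50, in the authors' deposited table. That median covers loci of both directions, so it is no measure to set the members against.

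Of the 8 largest WS falls, 5 were in head genes. AT4G09800 (RPS18C) went from 1111 to 671 FPKM (-0.73 ± 0.29, q-value 0.00218) in the authors' deposited table. AT3G53870 encodes S3, which lines the channel where messenger RNA enters, and went from 1140 to 739 FPKM (-0.63 ± 0.28) in the authors' deposited table. The S20 genes AT5G62300 and AT3G45030 went from 1909 to 1250 FPKM (-0.61 ± 0.36) and from 1232 to 825 FPKM (-0.58 ± 0.28) in the authors' deposited table. S12 (AT2G32060) went from 2185 to 1484 FPKM (-0.56 ± 0.35) in the authors' deposited table. Of the 3 S3 genes, AT5G35530 fell in WS too.

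In the body, SA (AT3G04770) went from 50.6 to 32.6 FPKM (-0.63 ± 0.35) in the authors' deposited table. AT4G00100 (RPS13A), an S13 gene, was the most expressed listed member in WS and went from 2625 to 1725 FPKM (-0.61 ± 0.32) in the authors' deposited table. AT3G56340, an S26 gene, went from 1429 to 966 FPKM (-0.57 ± 0.28) in the authors' deposited table. Over the list, 12 of 22 head genes and 10 of 31 body genes fell in WS, beside 3.42% of all loci tested. Again no test compares head and body, and nothing is read from the counts. At a q-value of 0.01 or less, 6 of the 22 calls were left. A limit of 0.5 on the size of the fold change left 15 of the 22.

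Of the members that fell with age in flight, 11 were listed in both accessions, which share no library. They were 55% of the 20 in Col-0 and 50% of the 22 in WS. Of all loci tested, 3.45% were called lower in Col-0 and 3.42% in WS, but how many were called in both was not counted. Since the members were chosen with both contrasts known, nothing is read from the overlap. The 11 comprised SA, S3 (AT3G53870), S5 (AT2G37270), both S6 genes, S7 (AT3G02560), S12, S13 (AT4G00100), S18 (AT1G34030 and AT4G09800) and S20 (AT3G45030). Among these 11 the median fold change was -0.37 in Col-0 and -0.56 in WS in the authors' deposited tables, and the WS value was the larger fall in each gene. A gene had to pass in both tables to be among the 11. The smallest fall listed for any member was 0.42 in WS against 0.30 in Col-0 on the log2 scale. How far these limits set the order was not tested, so nothing is read from the order. The difference between accessions was not tested. Bars of 1 implied standard error overlap in every one of the 11 genes, but that error may not match the authors' p-values, so nothing is read from the overlap of bars.

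**Figure D4:**
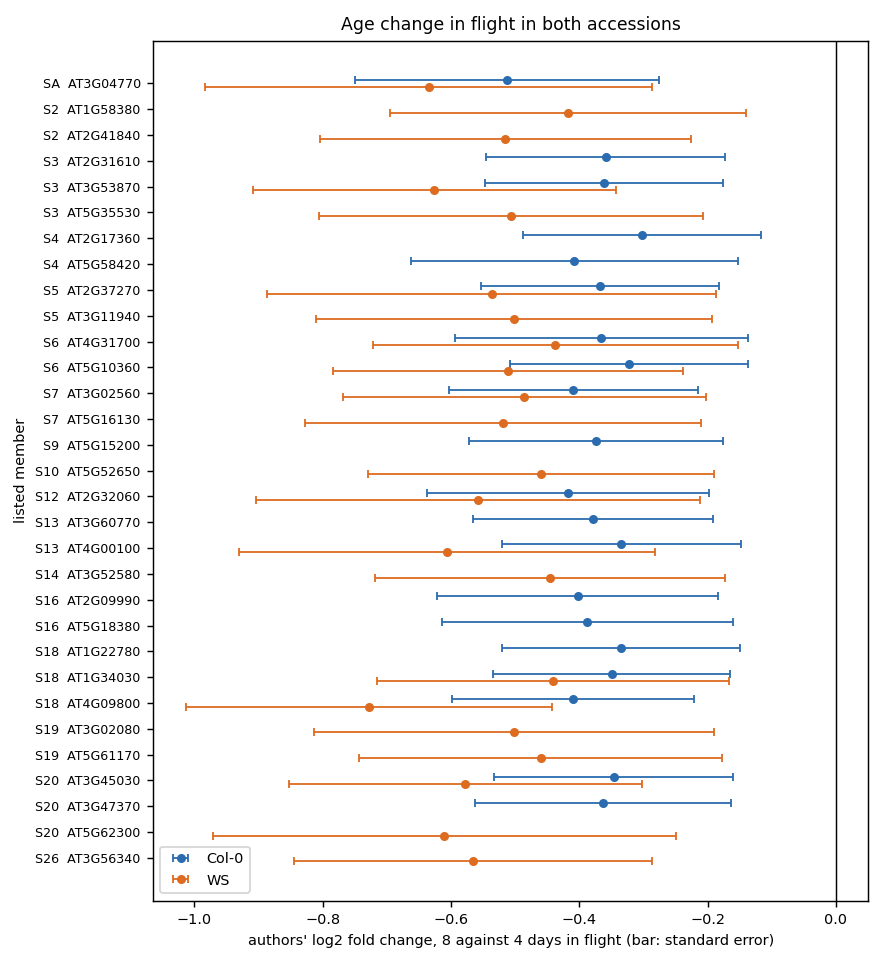
The authors' log2 fold change between 4 and 8 days in flight for each small-subunit gene called in Col-0 (blue) or WS (orange), with bars of 1 standard error as implied by the authors' statistic. All points lie below 0, from -0.73 for S18 (AT4G09800) in WS to -0.30 for S4 (AT2G17360) in Col-0.

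Other lists of the translation machinery also held genes that fell with age in flight, and no test compares the lists. In Col-0, 20 of the other 46 40S genes, 59 of 129 60S genes, 7 of 37 translation factor genes and 2 of 35 assembly genes were lower in the authors' deposited table. These are 43.5%, 45.7%, 18.9% and 5.71% of the lists, beside 37.7% of the members. The corresponding numbers in WS were 21, 41, 8 and 5, or 45.7%, 31.8%, 21.6% and 14.3%, beside 41.5% of the members. RACK1B, a scaffold protein bound to the head, went from 803 to 557 FPKM (-0.53 ± 0.21) in Col-0, and the nucleolin gene NUC1 from 214 to 128 FPKM (-0.74 ± 0.28) in WS in the authors' deposited tables. One translation factor gene, AT5G12110, which encodes an eEF1B subunit, went the other way in Col-0, from 38.4 to 66.3 FPKM (0.79 ± 0.40) in the authors' deposited table.

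Cell type markers also moved with age in flight. Of 10 green tissue genes, 7 were lower in Col-0 and 5 in WS, with RBCS3B going from 31.2 to 4.70 FPKM (-2.73 ± 0.45) in Col-0 in the authors' deposited table. WOX5 went from 26.6 to 8.46 FPKM (-1.65 ± 0.43) and PHT1;1 from 202 to 82.4 FPKM (-1.29 ± 0.22) in Col-0, and SCR, a regulator of the root ground tissue, from 13.6 to 6.35 FPKM (-1.10 ± 0.41) in WS, in the authors' deposited tables. None of 16 markers of dividing cells was listed in either accession. Their part in the ribosomal protein result was not tested.

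On the ground the age change listed few members. In Col-0, 2 members rose and 2 fell, in a table with 5.69% of 19905 loci called higher and 5.54% lower in the authors' deposited table. AT2G40590, an S26 gene that overlaps a gene on the other strand, went from 622 to 794 FPKM (0.35 ± 0.19) in the authors' deposited table. AT5G28060, an S24 gene, went from 861 to 1057 FPKM (0.30 ± 0.19) in the authors' deposited table. These 2 body genes had also risen in 4 day flight roots, in a table that shares the 4 day ground libraries with this one. The members that fell were S3 (AT3G53870), from 984 to 801 FPKM (-0.30 ± 0.18), and S9 (AT5G15200), from 2473 to 2072 FPKM (-0.25 ± 0.18), in the authors' deposited table. Both of those also fell with age in flight in Col-0. At a q-value of 0.01 or less 1 of the 4 calls was left, that of AT2G40590, and none reached a size of 0.5.

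Other translation genes were called in ground Col-0 roots as well. Of 37 translation factor genes 7 were lower (18.9%) and 1 higher, beside 5.54% and 5.69% of all loci tested, in the authors' deposited table. Of the 129 60S genes 7 were higher and 3 lower, of the 35 assembly genes 2 were higher and 3 lower, and of the other 46 40S genes 2 were lower. Of the 9 regulator genes 1 was lower, TCP20, from 13.3 to 8.30 FPKM (-0.68 ± 0.36) in the authors' deposited table. Nothing is read from 1 call in so short a list.

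In WS on the ground 1 member was lower and none higher, with 2.85% of 18017 loci called higher and 3.27% lower in the authors' deposited table. AT5G52650, an S10 gene, went from 495 to 371 FPKM (-0.42 ± 0.25, q-value 0.0182) in the authors' deposited table. This call did not reach a q-value of 0.01. Of the other 46 40S genes 6 were lower and 1 higher there, and of 37 translation factor genes 6 were lower. Of the 9 regulator genes 1 was lower there, RAPTOR1, from 5.30 to 3.25 FPKM (-0.71 ± 0.41) in the authors' deposited table. Here too nothing is read from 1 call. Cell type markers fell with age on the ground too. Green tissue genes were lower in both accessions, 4 of 10 in Col-0 and 5 of 10 in WS. Of 8 root markers 4 were lower in Col-0, namely PHT1;1 (-1.27 ± 0.23), the root hair gene COBL9 (-1.11 ± 0.37), SCR (-0.85 ± 0.28) and WOX5 (-0.75 ± 0.46), in the authors' deposited table. In WS 2 of the 8 were lower, WOX5 (-0.95 ± 0.50) and SCR (-0.75 ± 0.38), in the authors' deposited table. Of the 16 markers of dividing cells 2 rose in Col-0, CDKB2;2 from 14.6 to 23.6 FPKM (0.69 ± 0.49) and CYCA1;1 from 15.7 to 22.9 FPKM (0.55 ± 0.29) in the authors' deposited table. Whether the age change of the members differed between flight and ground was not tested, because unlisted genes have no fold change.

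**Figure D5:**
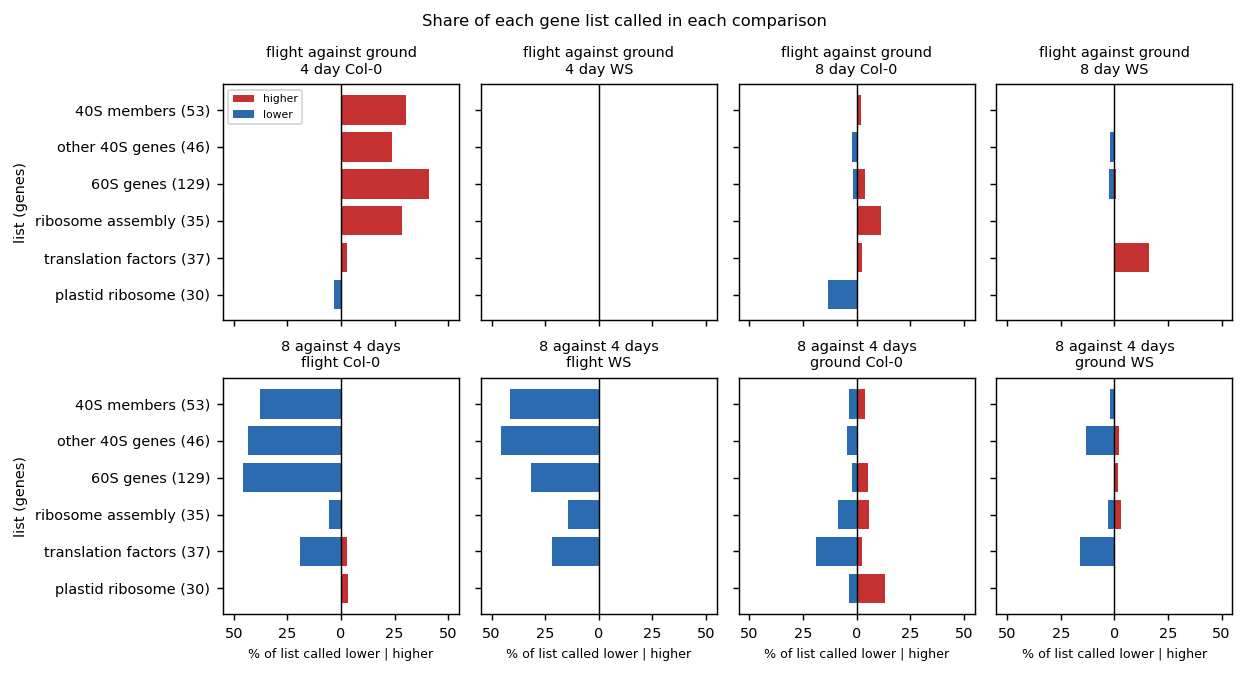
Percentage of each list of translation genes called higher (red, to the right) or lower (blue, to the left) in each of the 8 comparisons, with list sizes in parentheses. The cytosolic ribosomal protein lists reach the right side in 4 day Col-0 flight roots, with 30.2% of members and 41.1% of 60S genes higher, and the left side with age in flight.

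The 6 members in 3 tables were SA (AT3G04770), S3 (AT3G53870), S7 (AT3G02560), S10 (AT5G52650), S18 (AT1G34030) and S20 (AT3G45030). All but S3 rose in flight in 4 day Col-0 roots, where S10 (AT5G52650) went from 433 to 551 FPKM (0.35 ± 0.22), S18 (AT1G34030) rose by 0.37 ± 0.22 and S7 (AT3G02560) by 0.35 ± 0.23 in the authors' deposited table. With age in flight in Col-0, S3 (AT3G53870) went from 1089 to 847 FPKM (-0.36 ± 0.19), S18 (AT1G34030) changed by -0.35 ± 0.18 and S20 (AT3G45030) by -0.35 ± 0.19 in the authors' deposited table. With age in flight in WS, S10 (AT5G52650) went from 551 to 400.4 FPKM (-0.46 ± 0.27), S18 (AT1G34030) from 1082 to 797 FPKM (-0.44 ± 0.27) and S7 (AT3G02560) from 733 to 524 FPKM (-0.49 ± 0.28) in the authors' deposited table. S10 (AT5G52650) is the one member lower with age in WS both on the ground and in flight, in tables that share no library. It is the 1 of 53 members (1.89%) lower there on the ground, below 3.27% of all loci, so nothing is read from the match. Families also differed in how many of their members were listed. All 3 members of S3, S18, S20 and S26 stood in some table, and so did both members of S5, S6, S13 and S24. No family had members going opposite ways in 1 table, but none could. Only the age table of ground Col-0 roots lists members in both directions, and its 4 members are each of a different family. Over the 44 pairs of members within a family the coding sequences were 70.2% to 98.2% identical, and the longest identical run of transcript had a median of 30 nt.

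The 15 members in no table were spread over the families. They were AT1G72370 (SA), AT3G57490 (S2), AT5G07090 (S4), AT1G48830 (S7), AT5G20290 (S8), AT5G39850 (S9), AT5G41520 (S10), AT3G48930 and AT5G23740 (S11), AT1G15930 (S12), AT2G36160 and AT3G11510 (S14), AT1G07770 (S15a), AT3G04230 (S16) and AT5G15520 (S19). S15a was the only family with no listed member, and it has 1 gene in the set. AT1G72370 and AT3G04770 are the 2 SA genes, and their coding sequences are 70.2% identical. No level can be given for an unlisted gene. By place, 18 of 22 head genes and 20 of 31 body genes were listed in at least 1 table. No share of all genes can be set beside these counts, so nothing is read from them.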

How the data were processed

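RNA of dissected roots was sequenced from 10 ng of total RNA with 8 PCR cycles and a kit that does not mark strand, per the labels' protocols. Per the submitters' processing notes, the tools named were STAR 2.5.1b, Trimmomatic 0.36, FastQC 0.11.2, Cuffdiff, Cufflinks and Picard, listed in no order, with TAIR10. Settings, step order and other versions: not given in the sources used here. The deposited FPKM values are the authors' levels of each group of 4 libraries. The deposited log2 fold changes, test statistic (a score), p-value and q-value are the authors' Cuffdiff results per locus, with q-values adjusted by them within each table.

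Fold changes were signed to be above 0 where flight or the older age was higher. The standard error is the fold change divided by the statistic, and each table's count of tested loci follows from p-value, rank and q-value. The latter step was tested on simulated data. No test was added. Labels name biological replicates, whose spread enters only through the authors' test, and the q-values do not measure that spread. Depth per library is unknown, which limits precision. Tables of WS use other positions than the reference (5.15% of 2932 single-gene loci overlap the named gene, against 100% in Col-0), so positions are given for Col-0 only.

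Members and lists were chosen with earlier results of these data known. In each comparison the 8 largest listed members are given in full, with any that go against the majority and those in most tables, and up to 3 genes per other list. Genes and motifs were read from RefSeq (TAIR10.1) with Python 3.11.15, pandas 2.3.3 and Biopython 1.88. Alternatives were a q-value of 0.01, a size of 0.5, loci naming 1 gene, loci of at most 5000 bases and members with no overlap on the other strand.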

Additional observations from a re-analysis of the deposited data

How the results depend on the processing

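No direction of a count or median turned under any alternative run. At a q-value of 0.01 or less, 27 of 64 member lines were left. For flight in Col-0 these were 5 members higher at 4 days and 0 at 8 days. With age in flight they were 15 lower in Col-0 and 6 lower in WS. With age on the ground the same limit left 1 higher and 0 lower in Col-0, with a median of 0.35, and 0 lower in WS. With a size of 0.5 or more, 19 lines were left. Flight against ground in Col-0 kept 2 higher at 4 days and 1 higher at 8 days. Age in flight kept 1 lower in Col-0 and 15 lower in WS. Age on the ground kept 0 higher and 0 lower in Col-0 and 0 lower in WS. Fewer lines pass these limits by construction. Of the 64 lines, 18 spanned more than 5000 bases. These were 5 in 4 day and 1 in 8 day Col-0 flight roots, and 6 in each accession with age in flight. Loci of at most 5000 bases, and members with no overlap on the other strand, both chosen after seeing the data, each left 0 members higher in 8 day Col-0 flight roots, and the latter left 1 higher with age in ground Col-0 roots. Loci naming 1 gene left 61 lines and moved no count by over 1.5 times. Fold changes from levels in the 2 other tables could be computed for 0 members. No paired analysis was possible because the deposited tables hold no value per replicate, and for the same reason no replicate could be left out and no scaling changed. For 53 of the 64 lines the fold change was under 1.96 times its implied standard error, and the cause was not tested.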
